A study of Homo sapiens with 3 samples.

Results

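The regions described are the very wide peaks of trimethylated lysine 36 of histone H3 (H3K36me3) in LNCaP cells: peaks of at least 4000 bp on chromosomes 1 to 22, X and Y, taken from the peak list of each library. Of 131798 peaks in the library of cells given dihydrotestosterone (DHT), 485 were this wide, and of 117564 peaks in the library of untreated cells, 413 were. The regions were chosen by peak width alone, so their number and width are descriptions. The choice did not use where the regions lie, what surrounds them or the peaks of the other library. How far that other library covers a region is given as a share of the chosen width, so the choice fixes part of it.

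H3K36me3 is written by the methyltransferase SETD2, which rides on the elongating form of RNA polymerase II, so that the mark spreads over the transcribed bodies of genes, most densely away from the promoter. It is read by proteins that keep chromatin closed behind the polymerase and that take part in splicing, DNA methylation and DNA repair. Its domains are broad, and a peak caller made for sharp signals often reports such a domain as a row of shorter peaks, so an unbroken peak of several kilobases is the exception.

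LNCaP is an established human prostate cancer line that grows in response to androgen, and DHT is the strong androgen that activates its receptor. The DHT library came from cells given 100 nM DHT for 4 h in red-free RPMI. The untreated library came from cells labelled as having no treatment, and both were grown in RPMI with serum and precipitated with the same antibody. An input library was not analysed here. Each condition is 1 library of 1 cell line, so no test between conditions was possible, no p-value is given, and a change of medium cannot be told apart from the hormone. All intervals are at 95% and cover counting error only: Wilson intervals for shares, exact binomial intervals for ratios of counts, and order-statistic intervals for medians. They treat peaks as independent, which neighbouring peaks are not. Read depth is not given in the sources used here, and genes were not assigned, because the peaks are in hg19 and no annotation of that build was used here.

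Wide peaks were a thin slice of each list. They made up 0.368% of the DHT peaks and 3.68% of the length these covered, and 0.351% of the untreated peaks and 3.17% of their length. In all they spanned 2.43 Mb in the DHT library and 2.04 Mb in the untreated library. Median width was 4757 bp in the DHT library, with the middle 50% between 4338 and 5500 bp and the widest at 7885 bp. In the untreated library the median was 4684 bp, with the middle 50% between 4322 and 5329 bp and the widest at 7628 bp.

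Wide peaks scored above their lists as a whole, but not evenly so and not above peaks of 2 to 4 kb. The score is the authors' value for each peak, on a scale that is not stated, and is used here only within a list. Their median was 131.5 in the DHT list, against 85.7 over the whole list, and 135 in the untreated list, against 81.2. Even so, 112 of the 485 DHT wide peaks (23.1%) and 97 of the 413 untreated ones (23.5%) scored below the median of their own list. Median scores were higher among peaks of 2 to 4 kb, at 164.7 in the DHT list and 138.3 in the untreated list. Of those narrower peaks, 19.3% in the DHT list and 22.1% in the untreated list scored below the median of their list. Within the wide peaks, score and width were nearly unrelated, with Spearman rho of -0.0998 in the DHT library over 485 peaks and -0.0900 in the untreated library over 413, the points of each sharing a library. Peaks of 6 kb or more had the lowest median scores among the width classes from 1 kb up, 109 in the DHT list and 100.2 in the untreated list.

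The threshold cut through a smooth run of widths. Just inside it in the DHT list were peaks of 4001, 4002 and 4007 bp, which untreated peaks covered over 0%, 38.4% and 100% of their width. Just outside were DHT peaks of 3999, 3998 and 3993 bp, covered over 98.3%, 52.6% and 51.6%. In the untreated list the peaks just inside were 4000, 4004 and 4005 bp wide and were covered by DHT peaks over 82.6%, 67.6% and 79.4%. Those just outside, of 3999, 3997 and 3996 bp, were covered over 0%, 87.8% and 83.5%.

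The balance between the libraries differed with width, though not in even steps. From 2 to 3 kb the DHT list held 1615 peaks and the untreated list 1977, a ratio of 0.817 (0.764 to 0.873). From 3 to 4 kb it held 600 against 646, a ratio of 0.929 (0.830 to 1.04). At 4 kb and more the order was the other way round, 485 against 413, a ratio of 1.17 (1.03 to 1.34). At 6 kb and more it was 70 against 46, a ratio of 1.52 (1.03 to 2.26). Over all peaks the DHT list was itself larger, 131798 against 117564, a ratio of 1.12 (1.11 to 1.13). That ratio lay within the intervals at 4 kb and more and at 6 kb and more. An excess of wide peaks beyond the larger DHT list was therefore not shown. From 2 to 3 kb and from 3 to 4 kb the intervals lay below the ratio over all peaks. How far a second library of either condition would differ from the first is unknown.

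Wide peaks were unevenly spread over the chromosomes, as the plot of counts by chromosome shows. Chromosome 19 alone held 94 of the DHT wide peaks (19.4%) and 52 of the untreated ones (12.6%), although it held only 3.83% of all DHT peaks and 3.53% of all untreated peaks. That came to 1.59 wide peaks per Mb in the DHT library and 0.880 per Mb in the untreated library. Peaks of 2 to 4 kb were crowded on chromosome 19 too. It held 312 of 2215 such peaks in the DHT library (14.1%) and 300 of 2623 in the untreated library. Among wide peaks, chromosome 17 followed with 50 in the DHT library and 48 in the untreated library. In the DHT library the next were chromosome 11 with 42, against 37 in the untreated library, chromosome 16 with 37 against 23, and chromosome 22 with 35 against 25. In the untreated library chromosomes 1, 7 and 3 came before these last 2, with 34, 32 and 27 wide peaks, where the DHT library had 27, 28 and 22. The fewest lay on chromosomes 13, 18, X and Y. Chromosome 18 had 3 wide DHT peaks and 0 wide untreated peaks, X had 2 and 0, chromosome 13 had 0 and 1, and Y had none in either library.

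**Figure D1:**
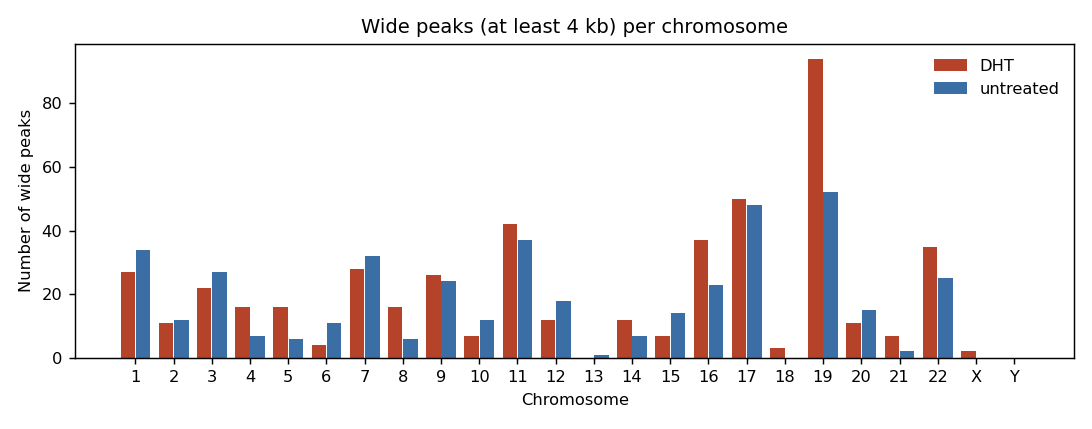
Number of peaks of at least 4 kb (vertical axis) on each chromosome (horizontal axis) in the DHT library (red) and the untreated library (blue). Chromosome 19 stands highest in both, at 94 and 52, and is where the counts differ most.

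Across the 24 chromosomes wide peaks were more numerous where protein-coding genes were, which were counted in the RefSeq table of GRCh38.p14 without using its coordinates. Pearson's r was 0.536 and Spearman's rho 0.606 in the DHT library, and r was 0.684 and rho 0.695 in the untreated library. When chromosomes 1 and Y, the extremes in gene number, were set aside, r was 0.599 in the DHT library and 0.676 in the untreated library. With chromosome length the counts had r of -0.184 in the DHT library and -0.00707 in the untreated library. Chromosomes share a library and are not replicates, so these are descriptions of 4 relations.

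Counts were higher in the DHT library on 13 chromosomes, lower on 10 and equal on 1. Chromosome 19 was the only chromosome whose interval for the ratio of counts excluded 1, at 1.81 (1.27 to 2.59). On chromosomes 4, 5 and 8 the DHT library had 16 wide peaks each, against 7, 6 and 6 in the untreated library. Counts ran the other way on chromosome 6, with 4 in the DHT library against 11 in the untreated library, on chromosome 15 with 7 against 14, and on chromosome 10 with 7 against 12. Without chromosome 19 the totals were 391 and 361, a ratio of 1.08 (0.936 to 1.25), whose interval includes 1.

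Taking all chromosomes together, the excess of wide peaks in the DHT library lay near chromosome ends and was not seen farther in. Within 5 Mb of an end the DHT library had 208 wide peaks and the untreated library 91, a ratio of 2.29 (1.78 to 2.96). Farther in it had 277 against 322, a ratio of 0.860 (0.730 to 1.01), whose direction was not kept when ends were drawn at 2 Mb, where the ratio farther in was 1.01 (0.866 to 1.17). As shares, 42.9% of DHT wide peaks (38.6% to 47.3%) and 22.03% of untreated wide peaks (18.3% to 26.3%) lay within 5 Mb of an end. Over all peaks of each list, 11.5% of DHT peaks and 10.1% of untreated peaks lay there. From 2 to 3 kb the shares were 33.2% of DHT and 23.8% of untreated peaks, and from 3 to 4 kb 35.0% and 23.7%. Untreated wide peaks therefore lay near ends about as often as these narrower untreated peaks, and DHT wide peaks more often than the narrower DHT ones. An end was position 1 or the last peak of either library on the chromosome. The division at 5 Mb, and the excess of DHT coverage near ends, were known from earlier results of these data.

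Among narrower peaks the ratio near ends was closer to 1. Peaks of 2 to 4 kb near ends numbered 746 in the DHT library and 623 in the untreated library, a ratio of 1.20 (1.08 to 1.33), and the ratio over all peaks near ends was 1.28 (1.25 to 1.31). Away from ends, peaks of 2 to 4 kb gave a ratio of 0.734 (0.686 to 0.786) and all peaks a ratio of 1.10 (1.09 to 1.11). By distance, the DHT library held 124 wide peaks and the untreated library 54 within 2 Mb, and 84 against 37 from 2 to 5 Mb. The libraries were close from 5 to 10 Mb, at 51 against 47, and from 10 to 20 Mb, at 87 against 80. Beyond 20 Mb the DHT library had 139 and the untreated library 195, a ratio of 0.713 (0.569 to 0.891). Leaving out chromosome 19, the ratio was 2.22 (1.69 to 2.93) near ends and 0.766 (0.639 to 0.918) elsewhere. On chromosome 19 itself the DHT library had more in both places, 33 against 12 near ends, a ratio of 2.75 (1.38 to 5.85), and 61 against 40 farther in, a ratio of 1.52 (1.01 to 2.33).

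**Figure D2:**
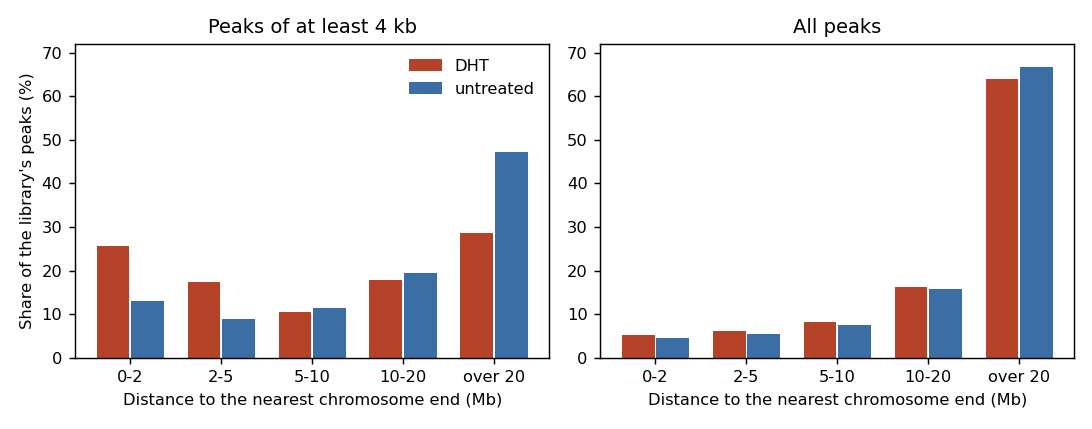
Share of each library's peaks (vertical axis, percent) by distance to the nearest chromosome end (horizontal axis, Mb), for peaks of at least 4 kb (left) and for all peaks (right), in the DHT library (red) and the untreated library (blue). Of the wide peaks, 25.6% in the DHT library and 13.1% in the untreated library lay within 2 Mb, while over all peaks these shares were 5.28% and 4.65%.

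The ends did not all differ in the same direction. Of the 48 chromosome ends, 27 held a wide peak in either library, and the DHT library had more at 19 of them, fewer at 7 and as many at 1. The start of chromosome 19 had 29 wide peaks in the DHT library and 6 in the untreated library. The start of chromosome 16 and the end of chromosome 17 had 20 in the DHT library and 7 in the untreated library each, the end of chromosome 8 had 15 against 5, and the start of chromosome 4 had 12 against 2. At the starts of chromosomes 1 and 7 the counts were 10 in the DHT library against 3 in the untreated library. By contrast, the start of chromosome 17 had 5 in the DHT library and 9 in the untreated library, and the end of chromosome 19 had 4 against 6. The counts at opposite ends of chromosome 19 therefore differed in direction, as did those of chromosome 17. At the ends with more in the untreated library the counts were small, and no intervals were computed for single ends.

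Wide peaks lay in company. In the DHT library 239 of 485 (49.3%, interval 44.9% to 53.7%) had another wide DHT peak within 100 kb, and in the untreated library 151 of 413 (36.6%, 32.1% to 41.3%) had another wide untreated peak that near. Over all peaks, 5.93% of DHT peaks and 5.29% of untreated peaks had a wide peak of their own list within 100 kb. Among peaks of 2 to 4 kb the shares were 36.6% in the DHT library and 26.3% in the untreated library. The median distance from one wide peak to the next was 102 kb in the DHT library (86.9 to 129 kb) and 256 kb in the untreated library (201 to 314 kb). The part that crowding on a few chromosomes has in these distances was not tested.

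Chaining wide peaks of both libraries at gaps of up to 100 kb gave 504 groups, of which 280 were a lone peak and 16 held at least 5. Those 16 groups held 54 DHT and 40 untreated wide peaks, 10.5% of all 898. The DHT library had more wide peaks than the untreated library in 9 of the 16, fewer in 6 and as many in 1. None was on chromosome 19, and 8 of the 16 lay within 5 Mb of an end.

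The largest group lay on chromosome 16 from 2024212 to 2337128, 313 kb long, with 7 wide peaks in the DHT library and 2 in the untreated library. DHT peaks of any width covered 24.2% of it and untreated peaks 14.6%. None of its DHT wide peaks overlapped an untreated wide peak. Of those 7, 3 held no untreated base at all, namely 2048811 to 2053887, 2281560 to 2286714 and 2332790 to 2337128, and the other 4 were covered by narrower untreated peaks over 45.3% to 74.1% of their width. Its untreated wide peaks were covered by DHT peaks over 77.0% and 96.2%.

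The second group, on chromosome 11 from 835880 to 1014622, held 5 wide peaks in the DHT library and 2 in the untreated library. DHT peaks covered 28.4% of it and untreated peaks 16.2%. Its first pair matched closely: the DHT peak from 835880 to 841704 and the untreated peak from 836196 to 841576, with the untreated peak wholly inside the DHT peak. The widest DHT peak of all, from 897415 to 905299, was covered by untreated peaks over 28.9% of its width, and its neighbour from 882445 to 888789 over 42.5%.

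The third group, on chromosome 3 from 49048499 to 49169546, was balanced, with 3 wide peaks in the DHT library and 4 in the untreated library, and with 24.1% of its length covered by DHT peaks and 25.8% by untreated peaks. In 2 places the libraries had wide peaks at the same position, from 49048633 to 49054659 in the DHT library against 49048499 to 49054542 in the untreated library, and from 49160007 to 49164329 against 49159943 to 49164406. The peaks at these places differed at their edges by 64 to 134 bp. The groups on chromosomes 16 and 11 lay near chromosome ends and the group on chromosome 3 did not.

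**Figure D3:**
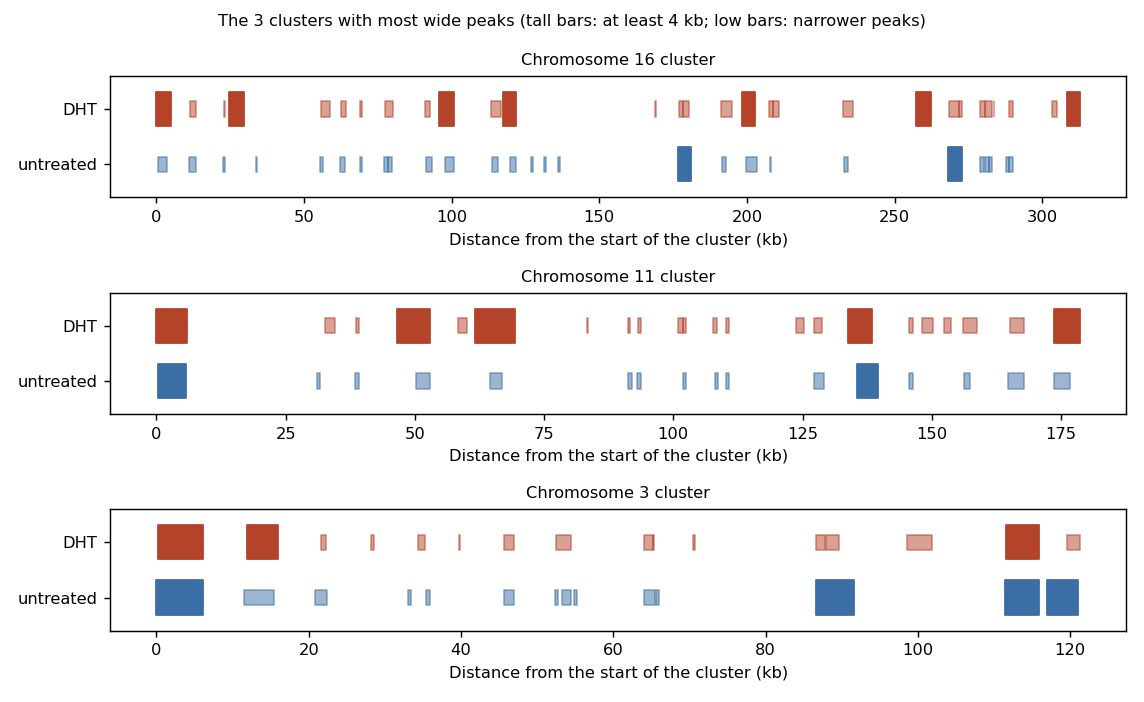
Peaks of the DHT library (red, upper track) and the untreated library (blue, lower track) in the 3 groups with most wide peaks, by distance from the start of the group (horizontal axis, kb). Tall bars are peaks of at least 4 kb and low pale bars are narrower peaks: the DHT track holds 7, 5 and 3 tall bars and the untreated track 2, 2 and 4.

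Just past the edge of a wide peak its own list was sparse, which is partly fixed by the edge being where that list stops, while the other list has no such limit. In the 1 kb next to either edge, other DHT peaks covered 4.72% of sequence on average around DHT wide peaks, and other untreated peaks 5.61% around untreated wide peaks. Coverage by the same list grew to 18.3% in the DHT library and 16.2% in the untreated library in the fifth kilobase, and was 13.1% in the DHT library and 12.1% in the untreated library at 15 to 20 kb. In that 1 kb the other library covered 11.8% around DHT wide peaks and 14.7% around untreated wide peaks. Next to peaks of 2 to 4 kb all these values were higher: the same list covered 11.4% around DHT peaks and 9.05% around untreated peaks, and the other list 20.2% around DHT peaks and 19.9% around untreated peaks.

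Farther out, own peaks covered nearly as much sequence around wide peaks as around narrower ones, but the nearest own peak stood farther from wide peaks. Over 10 kb on each side, own peaks covered a median of 13.3% around DHT wide peaks (12.2% to 14.3%) and 11.9% around untreated wide peaks (9.99% to 13.2%). Around peaks of 2 to 4 kb the medians were 14.4% in the DHT library and 12.3% in the untreated library. The nearest peak of the same list stood a median of 3783 bp away in the DHT library and 4324 bp away in the untreated library, against 2432 bp and 3342 bp for peaks of 2 to 4 kb. No other peak of their list lay within 10 kb of 51 DHT wide peaks (10.5%) and 63 untreated ones (15.3%). For peaks of 2 to 4 kb these shares were 4.88% in the DHT library and 8.54% in the untreated library.

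Inside the wide peaks, the other library was present far more often than around them, and more fully in the middle than at the edges. Each wide peak was cut in 10 equal parts along the chromosome, without regard to strand. Untreated peaks covered 57.4% of part 5 and 56.8% of part 6 of DHT wide peaks, with 35.3% in part 1 and 39.7% in part 10. DHT peaks covered 75.8% of part 5 and 76.7% of part 6 of untreated wide peaks, with 48.5% in part 1 and 48.7% in part 10.

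**Figure D4:**
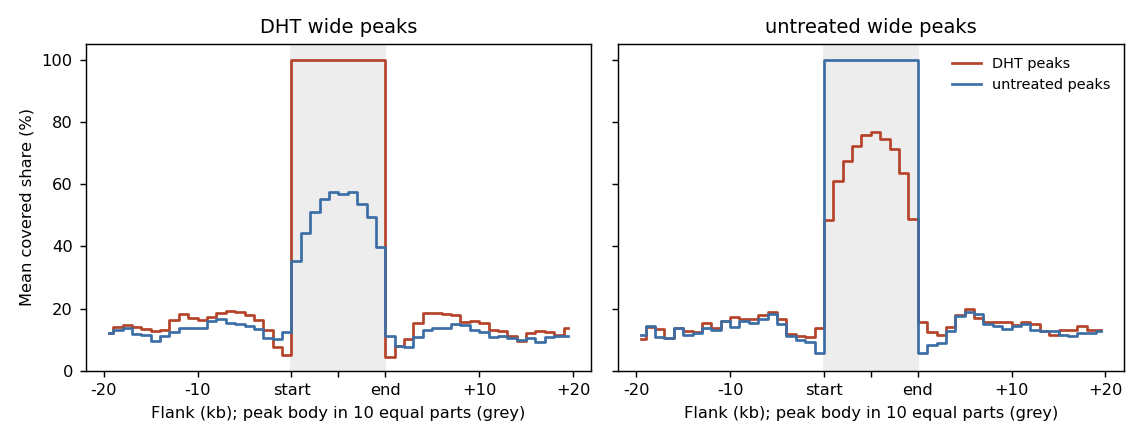
Mean share of sequence covered (vertical axis, percent) by DHT peaks (red) and untreated peaks (blue), across DHT wide peaks (left) and untreated wide peaks (right); the grey body is each wide peak cut in 10 equal parts and the flanks are in steps of 1 kb. The library that chose the peaks is at 100% in the body by definition, and the other library peaks in the middle of the body at 57.6% on the left and 76.7% on the right.

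DHT peaks filled untreated wide peaks more completely than untreated peaks filled DHT wide peaks. Of the 485 DHT wide peaks, 112 (23.1%, 19.6% to 27.0%) held no base of an untreated peak, while 51.5% of all DHT peaks held none. Of the 413 untreated wide peaks, 32 (7.75%, 5.54% to 10.7%) held no base of a DHT peak, while 47.7% of all untreated peaks held none. The median filled share was 52.9% of the width in DHT wide peaks (46.7% to 58.7%) and 72.8% in untreated wide peaks (68.5% to 76.9%). At least 50% of the width was filled in 256 DHT wide peaks (52.8%) and 307 untreated ones (74.3%), against 45.5% over all DHT peaks and 45.5% over all untreated peaks. At least 90% was filled in 93 DHT wide peaks (19.2%) and 104 untreated ones (25.2%), against 30.7% over all DHT peaks and 19.9% over all untreated peaks. The whole lists covered 66.0 Mb in the DHT library and 64.3 Mb in the untreated library.

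**Figure D5:**
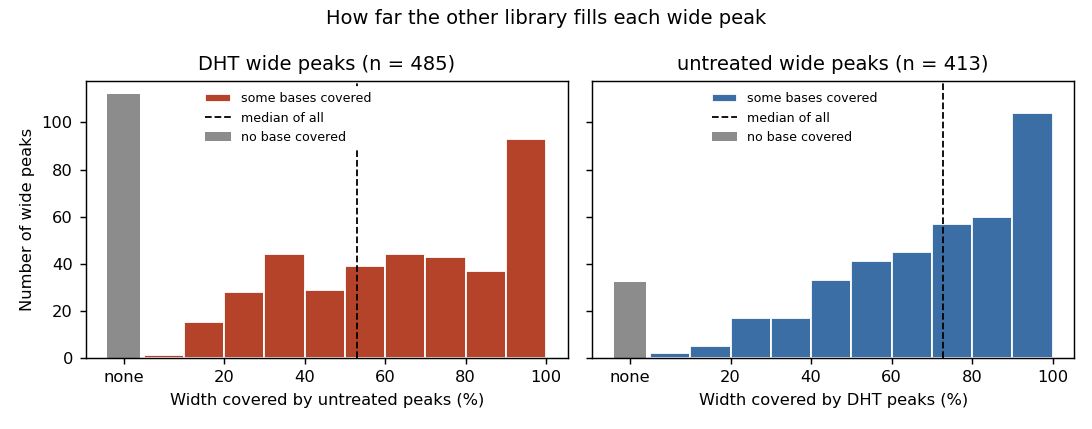
Number of wide peaks (vertical axis) by the share of their width covered by peaks of the other library (horizontal axis, percent), for 485 DHT wide peaks (left) and 413 untreated wide peaks (right). Grey bars are wide peaks with no base covered, 112 on the left and 32 on the right, and dashed lines are medians, 52.9% and 72.8%.

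Among DHT peaks the filled share thinned with width while the share met did not. Both measures are tied to width in part, since the filled share is divided by it and a wider peak is more easily met. The share of DHT peaks met by an untreated peak was 76.3% at 2 to 3 kb and 77.1% at 4 to 5 kb, but the median filled share fell with each width class from 1 to 2 kb onward. It was 78.3% at 1 to 2 kb, 72.4% at 2 to 3 kb, 63.9% at 3 to 4 kb, 58.7% at 4 to 5 kb, 54.0% at 5 to 6 kb and 33.7% (24.6% to 50.9%) at 6 kb and more. Untreated peaks showed no such steady fall, with medians of 68.2%, 72.9%, 74.6%, 75.9%, 72.6% and 61.1% (38.9% to 82.2%) over the same classes. Peaks of 2 to 4 kb were unmet about as often as wide ones, 23.4% in the DHT library and 8.997% in the untreated library. DHT wide peaks differed from DHT peaks of 2 to 4 kb in how much of them was covered, with medians of 52.9% (46.7% to 58.7%) and 69.8% (66.6% to 72.7%).

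The arrangement of the covering peaks differed as well. Among DHT wide peaks, 325 were met by 1 untreated peak and 48 (9.90%, 7.55% to 12.9%) by 2 or 3. Among untreated wide peaks, 237 were met by 1 DHT peak and 144 (34.9%, 30.4% to 39.6%) by 2 to 4. Over all peaks of each list, 1.13% of DHT peaks and 3.18% of untreated peaks were met by at least 2, and among peaks of 2 to 4 kb 8.76% and 27.0% were. Gaps between such pieces varied in length. For untreated pieces inside DHT wide peaks, the largest gap within a wide peak had a median of 211 bp, an upper quartile of 646 bp and a maximum of 4332 bp. For DHT pieces inside untreated wide peaks these values were 186.5 bp, 588 bp and 3151 bp. The gap was at most 200 bp in 24 of the 48 DHT wide peaks and in 74 of the 144 untreated ones. In the higher-scoring 50% of each list, the shares met by at least 2 were 4.83% of DHT and 23.4% of untreated wide peaks. After peaks at most 200 bp apart were joined in both lists they were 8.18% and 24.7%, so the number of pieces moved with these settings while its order between the libraries did not change.

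Sorted by the covering peaks, DHT wide peaks fell into 112 with none, 123 with an untreated peak that was itself at least 4 kb, 207 with 1 narrower untreated peak and 43 with several narrower ones. Untreated wide peaks fell into 32 with none, 123 with a DHT peak of at least 4 kb, 121 with 1 narrower DHT peak and 137 with several. Where 1 narrower peak was all there was, it filled a median of 48.4% of the DHT wide peak and 55.7% of the untreated wide peak. Several narrower peaks together filled a median of 67.7% of the DHT and 73.3% of the untreated wide peaks.

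The highest-scoring wide peaks were filled more than the lowest-scoring ones in both libraries, but not in even steps. Among the lowest-scoring 25% of DHT wide peaks the median filled share was 35.1% (26.8% to 45.3%). In the next 25% it was 30.4% (22.2% to 37.3%), then 57.8% (44.9% to 66.0%), and among the highest-scoring 25% it was 79.2% (73.01% to 88.2%). For untreated wide peaks the medians in the same order were 58.3% (47.3% to 65.7%), 72.1% (61.9% to 76.7%), 72.3% (61.6% to 82.1%) and 80.7% (77.7% to 88.1%). Unmet wide peaks made up 36.1% of the lowest-scoring and 5.79% of the highest-scoring DHT wide peaks, and 16.3% and 0.971% of the untreated ones. Among the highest-scoring 25% the medians of the libraries differed by less than their intervals, and among the lowest-scoring 25% the intervals did not overlap. Spearman's rho between score and filled share was 0.405 over the 485 DHT wide peaks and 0.296 over the 413 untreated ones, as a description within each list. Over the 2215 DHT peaks of 2 to 4 kb it was 0.466, so in that list the relation was not particular to wide peaks.

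Near chromosome ends DHT wide peaks were filled less than elsewhere, and untreated wide peaks were not. Within 5 Mb of a chromosome end the median filled share of DHT wide peaks was 45.1% (36.7% to 52.0%), against 61.0% (52.7% to 67.6%) farther in. For untreated wide peaks it was 77.0% (70.4% to 86.6%) near ends and 70.7% (65.1% to 76.5%) farther in, with overlapping intervals. The lower filling near ends was not particular to wide DHT peaks. In DHT peaks of 2 to 4 kb the medians were 61.6% (57.2% to 65.0%) near ends and 76.8% (72.5% to 80.1%) farther in. At the start of chromosome 19 the median was 36.7% for the 29 DHT wide peaks and 95.9% for the 6 untreated ones, and at the start of chromosome 16 it was 46.8% for 20 DHT and 96.2% for 7 untreated ones. The gap was smaller at the end of chromosome 17, at 58.0% for 20 DHT and 84.0% for 7 untreated ones, and at the end of chromosome 19, at 61.6% for 4 DHT and 65.0% for 6 untreated ones. At the start of chromosome 17 the order was the other way, at 99.3% for 5 DHT and 81.02% for 9 untreated ones. Scores moved with place too, with medians of 113 near ends and 151 elsewhere for DHT wide peaks and of 125 near ends and 138 elsewhere for untreated ones, and their part in this was not tested. The share with no base covered differed little with place, at 22.6% of DHT wide peaks near ends and 23.5% elsewhere, and 11.0% of untreated wide peaks near ends and 6.83% elsewhere.

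Wide peaks with a wide neighbour had lower median filled shares than those without, but the intervals overlapped in both libraries. The median filled share was 46.7% (38.3% to 54.2%) in the 239 DHT wide peaks with another within 100 kb, against 61.7% (52.0% to 67.9%) in the 246 without. In the untreated library it was 70.2% (61.9% to 76.6%) in the 151 with a neighbour and 74.6% (68.7% to 78.0%) in the 262 without. They overlapped for chromosome 19 as well: DHT wide peaks there had a median filled share of 45.8% (36.7% to 55.6%), against 55.4% (47.7% to 61.2%) on the other chromosomes.

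Unmet wide peaks mostly had peaks of the other library nearby, as wide peaks in general did. The nearest untreated peak lay a median of 3.33 kb from the 112 unmet DHT wide peaks and at most 24.2 kb away. From the 32 unmet untreated wide peaks the nearest DHT peak lay a median of 4.51 kb and at most 20.6 kb away. Within 10 kb of 103 of the 112 (92.0%) there was an untreated peak, and within 10 kb of 27 of the 32 (84.4%) there was a DHT peak. Over all wide peaks, 7.63% of DHT ones (5.59% to 10.3%) had no untreated peak, and 5.81% of untreated ones (3.94% to 8.50%) no DHT peak, in the 10 kb on each side. Scores of unmet wide peaks had a median of 98.6 in the DHT list, against 148 for the met ones, and 83.8 in the untreated list, against 142. Of the unmet ones, 44 of 112 in the DHT library and 15 of 32 in the untreated library scored under their list's median.

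The widest unmet DHT peak was 7739 bp, on chromosome 3 from 52510353 to 52518091, scoring 61.3, with an untreated peak 5470 bp away. DHT peaks covered 41.9% of its 10 kb flanks and untreated peaks 21.8%. The next, on chromosome 11 from 70276841 to 70284476, was 7636 bp wide and had no other DHT peak in its 10 kb flanks, while untreated peaks covered 10.2% of them. On chromosome 8 from 134469935 to 134477424 the nearest untreated peak was 8142 bp away. On chromosome 19 from 34291945 to 34299243 it was only 352 bp away, and on chromosome 4 from 6291633 to 6298882, where untreated peaks covered 42.2% of the flanks, it was 1551 bp away. In these last 2 places both libraries were marked beside the DHT wide peak and only the DHT list continued through it.

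The widest unmet untreated peak was 7515 bp, on chromosome 10 from 81062831 to 81070345, with the nearest DHT peak 4032 bp away. On chromosome 19 from 54964584 to 54971666 the untreated wide peak ended 220 bp from a DHT peak. The third, chromosome 22 from 20091914 to 20098403, scored 50.5, and the fourth, chromosome 19 from 11223005 to 11229468, scored 54.1, near the lowest score in the list. The fifth, on chromosome 7 from 6679024 to 6685454, scored 191 and lay only 31 bp from a DHT peak that was itself wide.

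Wide peaks that overlapped between the libraries shared most of their length, though their edges often differed. The 123 DHT wide peaks that overlapped an untreated wide peak did so in 123 separate pairs, which were 25.4% of the DHT and 29.8% of the untreated wide peaks. Median shared length was 4372 bp, or 97.1% of the DHT peak and 95.7% of the untreated peak. Starts differed by a median of 225 bp and ends by 184 bp, and in 60 of the 123 pairs both edges lay within 500 bp of each other. The shortest shared stretch was 2304 bp, on chromosome 19, between the DHT peak from 27733773 to 27739570 and the untreated peak from 27731704 to 27736076. Over all met wide peaks, both edges of the covering peaks came within 500 bp of those of the wide peak in 79 of 373 in the DHT library (21.2%) and 117 of 381 in the untreated library (30.7%). The DHT peak was the wider in 53 pairs and the untreated peak in 70, with a median difference, DHT minus untreated, of -31 bp. Near chromosome ends lay 37 of the pairs (30.1%), and 22 were on chromosome 19. Paired peaks scored higher than wide peaks in general in the DHT list, with medians of 211 and 131.5, but not in the untreated list, with medians of 134 and 135.

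The pair with the longest shared stretch, 7173 bp, lay on chromosome 7, from 6685486 to 6692681 in the DHT library and from 6685509 to 6692707 in the untreated library, so that the edges differed by 23 and 26 bp. On chromosome 15 the DHT peak from 42135404 to 42142378 shared 6973 bp with the untreated peak from 42135406 to 42142629. On chromosome 7 the DHT peak from 44096191 to 44103007 lay wholly inside the untreated peak from 44096041 to 44103015. On chromosome 19 that from 6415697 to 6422335 lay wholly inside the untreated peak from 6415636 to 6422344. The fifth pair, also on chromosome 19, was 7297 bp wide in the DHT library and 6412 bp in the untreated library, with the untreated peak inside the DHT peak.

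High-scoring wide peaks were shared even where their edges were not. The highest-scoring DHT wide peak, 693 on chromosome 1 from 44683665 to 44688079, was covered over its whole width by an untreated peak of 5471 bp. Coverage was 98.5% for the second, on chromosome 3 from 50323797 to 50328317, and 87.9% for the third, also on chromosome 3, from 49060374 to 49064477. It was 97.8% for the fourth, chromosome 9 from 127618456 to 127622575. The fifth, chromosome 19 from 17971274 to 17976032, was covered over 99.7% by 2 untreated peaks. The highest-scoring untreated wide peak, 728 on chromosome 19 from 35447629 to 35453071, was covered by 2 DHT peaks over 69.0%. The other 4 were covered over 78.01% to 99.4%, among them the partners of the DHT peaks named on chromosomes 9 and 3.

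The 5 widest peaks of each library were filled very unevenly. In the DHT library the filled shares were 28.9%, 43.3%, 78.1%, 0% and 0%, in order of falling width. The second of these was on chromosome 5 from 1073412 to 1081238. The third, on chromosome 22 from 46682043 to 46689807, was the only DHT peak among these 5 that met a wide untreated peak. In the untreated library they were 60.7%, 0%, 85.3%, 56.0% and 96.5%. The first, of 7628 bp, lay on chromosome 17 from 7123942 to 7131569. The third was on chromosome 1, starting at 151336612 and ending at 151344044, and the fourth on chromosome 19 from 4655888 to 4663230. Scores of these 10 ranged from 61.3 to 121, below the median of the wide peaks in either list.

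Merging overlapping wide peaks of both libraries gave 775 loci, 123 wide in both, 362 in the DHT library alone and 290 in the untreated library alone. Covered length was at least 2-fold higher in the DHT library at 229 loci (29.5%) and at least 2-fold lower at 107 (13.8%), which left 439 within 2-fold. At 3973 loci built the same way from peaks of 2 to 4 kb the shares were 19.6% and 16.6%. Most loci wide in 1 library alone were thus not bare in the other: 112 had no untreated base and 32 no DHT base. Near chromosome ends, 113 of 262 loci were at least 2-fold higher in the DHT library and 22 at least 2-fold lower, or 43.1% and 8.397%, with 89.3% of their length covered by DHT peaks and 55.6% by untreated peaks. Farther in, 116 of 513 were higher and 85 lower, or 22.6% and 16.6%, with 78.3% covered by DHT peaks and 75.1% by untreated peaks. Loci of 2 to 4 kb peaks differed with place as well, with 25.6% higher and 12.9% lower near ends, and 17.2% higher and 18.01% lower farther in. The choice of loci by width in either library fixes part of such differences, and more loci came from the DHT list.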

How the data were processed

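H3K36me3 ChIP-seq of 1 DHT-treated and 1 untreated LNCaP library was analysed from the peak lists that the authors deposited, with chromosome, start, end, name and score per peak. The peak names in the deposited files carry the name MACS, and each library has its own list. Coordinates are hg19, as the file names say. Each peak has a score deposited by the authors, between 50 and 3100 in either list, whose scale is unstated. Sources used here do not give the version, settings or control of the caller, the aligner or how many reads there were, so depth is unknown. Mitochondrial peaks, 3 in the DHT list and 4 in the untreated list, were left out, and none was 4 kb wide. No peaks of 1 list overlapped each other. Positions are printed counting from 1.

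Overlap was counted from 1 bp, and covered length, gaps and joins were computed in Python 3.11.15 with NumPy 2.4.6 and pandas 2.3.3, and intervals with SciPy 1.17.1. The interval functions were tested on simulated lists. With 1 library per condition no test was run. The width rule, the lists and the division by chromosome ends were chosen with earlier results of these data known. Regions were named by rule: per library the 5 widest, the 5 highest-scoring and the 5 widest unmet wide peaks, the 5 pairs sharing most length, the 3 groups with most wide peaks, the 3 loci with the largest difference in covered length each way, and 3 peaks on either side of 4000 bp. The loci named by difference were the 3 widest unmet peaks of each library. Genes under wide peaks were to be listed only with an hg19 annotation and were not analysed here. Alternatives were other widths, the higher-scoring 50% of each list, joined or trimmed lists, no chromosome 19, and other distances.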

Additional observations from a re-analysis of the deposited data

How the results depend on the processing

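With no replicates and unknown depth, none of these values carries the spread between libraries, and a value was called moved when it left the counting interval of the reported one. No paired analysis was possible because each condition has 1 library. The ratios near and away from chromosome ends, the number of covering peaks and the fillings of named peaks under other settings were added after seeing the data.

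Of 93 values recomputed under other settings, 62 stayed within that interval with their direction kept, 30 moved, and 1 ratio changed direction. At a width of 3 kb the ratio of wide peak numbers, DHT over untreated, was 1.02, the median filled share of DHT wide peaks 59.9% with 57.2% of them at least 50% filled, their share near ends 38.5%, and the ratio near ends 1.71. At 5 kb the share of untreated wide peaks met was 88.6%, the DHT share near ends 49.0% and the ratio near ends 3.03. In the higher-scoring 50% of each list, 65.7% of DHT and 87.0% of untreated wide peaks were met, median filled shares were 42.9% and 63.4%, and 47.5% and 65.8% were at least 50% filled. Joining each list at 200 bp gave 94.5% of untreated wide peaks met. Within 2 Mb of an end lay 25.6% of DHT and 13.1% of untreated wide peaks, and within 10 Mb 53.4% and 33.4%, more with distance by construction. With ends drawn at 2 Mb the ratio away from ends, 0.860, turned to 1.006, which changed its direction but lay inside its counting interval of 0.730 to 1.013. The cause of the changes with score was not tested. Shares with a wide neighbour, DHT and untreated, were 67.2% and 59.96% at 3 kb, 27.1% and 19.6% at 5 kb, 37.5% and 29.4% in the higher-scoring 50%, 34.8% and 24.5% within 50 kb, and 61.4% and 44.3% within 200 kb. Joined at 200 bp the DHT share was 54.3%. In each of these the number of wide peaks or the distance changed by construction, and the DHT share stayed above the untreated one. Of the widest and highest-scoring peaks named, none that met the other library moved by over 5 points in filled share in the 4 list settings run. For the 10 without a base of the other library these settings could not give another value.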

Other observations

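Wide peaks of the same list that nearly touched were rare, and more of them were in the untreated library; these places were chosen after their values were seen. At gaps of up to 1 kb the DHT list held 1 such pair and the untreated list 6. The DHT pair lay on chromosome 19, from 4443242 to 4450313 and from 4451006 to 4455359, and its members were covered by untreated peaks over 27.0% and 93.9%. Neighbours in the untreated list could be filled very differently. On chromosome 7 the untreated wide peaks from 6679024 to 6685454 and from 6685509 to 6692707 were 54 bp apart, and DHT peaks covered none of the first and 99.6% of the second, so the DHT list held only the right-hand part of a stretch of 13684 bp. On chromosome 3 the untreated wide peak from 53206544 to 53210754 held no DHT base, while the next one, 829 bp away and ending at 53216591, was covered over 64.0%. On chromosome 19 both members, from 36212160 to 36217819 and from 36217918 to 36222874, held no DHT base. The other 3 pairs, 1 on chromosome 2 and 2 on chromosome 17, were covered by DHT peaks over 38.7% to 93.7% of each member.

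The group with the largest excess of untreated over DHT wide peaks lay on chromosome 1 from 44009959 to 44089222, away from a chromosome end, with 1 wide peak in the DHT library and 5 in the untreated library. DHT peaks covered 16.1% of it and untreated peaks 40.5%. The DHT wide peak, from 44056080 to 44061244, overlapped the untreated one from 44055662 to 44061061, which was covered over 92.3%. Untreated wide peaks from 44034960 to 44040018 and from 44043935 to 44050283 held no DHT base, and the outer ones were covered over 48.9% and 73.1%.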
